A study of Mus musculus with 4 samples.

Results

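MHC class II molecules are pairs of an alpha and a beta chain that carry peptides from the endosomes to the cell surface, where helper T cells read them. The invariant chain, encoded by Cd74, escorts the new chains and blocks their groove, and the H2-DM proteins then help to exchange its last fragment for a peptide. Ciita is the transactivator of these genes; it does not bind DNA itself but docks on a complex of RFX, CREB and NF-Y factors at their promoters. Macrophages make class II in amounts that depend on their origin and on interferon gamma, whereas B cells and dendritic cells make it constantly.

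The genes described are the rows of the count table whose symbol is H2-Aa, H2-Ab1, H2-Eb1, H2-DMa, H2-DMb1, H2-DMb2, Cd74 or Ciita. All 8 symbols were found among 13834 listed genes, and all 8 were among the 12542 genes that passed edgeR's filter on low counts. RNA was sequenced from peritoneal macrophages of 2 Dnmt1 fl/fl and 2 Dnmt1 KO samples. Mice were 10 weeks old and had received thioglycolate broth, which draws leukocytes into the abdominal cavity, 3 days before the cells were washed out and placed in culture. The genotype field of the controls reads wt, whereas the extraction notes and the study's methods call them Dnmt1 fl/fl, the name used here. By those methods both genotypes carry the floxed Dnmt1 gene; Dnmt1 KO mice also express Cre recombinase under the LysM promoter, so deletion is aimed at myeloid cells and other cells in a sample keep the gene. The labels do not say whether the samples of a genotype came from separate mice, so the p-values measure the spread between these samples only. Dnmt1 fl/fl replicate 1 held 20228071 counts in total and replicate 2 held 24198943, while Dnmt1 KO replicate 1 held 21767795 and replicate 2 held 22611219. Levels are given as CPM, the counts of a gene relative to the TMM-scaled library total, and a floor of 3 counts lies between 0.120 and 0.151 CPM, a limit that covers counting error only.

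Dnmt1 itself was at 86.6 and 67.0 CPM in Dnmt1 fl/fl replicates 1 and 2, and at 37.0 and 42.7 CPM in Dnmt1 KO replicates 1 and 2. Both Dnmt1 KO samples lay below both Dnmt1 fl/fl samples, in the direction of their labels, with a log2 fold change of -0.95 ± 0.24 (SE; edgeR unadjusted p = 0.00839, adjusted p = 1.00). Among 10 macrophage markers, all tested, Lyz2 had the highest CPM, followed by Itgam, Cd68 and Csf1r, and the labelled cell type was therefore represented in every sample. Lyz2, the lysozyme M gene whose promoter drives Cre, was at 29530 and 28590 CPM in Dnmt1 fl/fl and at 11350 and 15740 CPM in Dnmt1 KO (log2 fold change -1.10 ± 0.32, edgeR unadjusted p = 0.0145).

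The class II genes and Ciita did not separate the genotypes. All 8 genes were lowest in Dnmt1 KO replicate 1, and Dnmt1 KO replicate 2 lay at or near the top. The genotypes overlapped in every one of the 8 genes, whereas they did not overlap in 16.7% of all genes tested. With edgeR's quasi-likelihood test, 0 of the 8 genes had an adjusted p under 0.05 and 0 had an unadjusted p under 0.05. The same test called 0% of all genes at the adjusted threshold and 0.279% of them, 35 genes, at the unadjusted one. DESeq2 called 1 gene of the table and limma-voom 0, and neither called a class II gene or Ciita. The median log2 fold change of the 8 genes was -0.18, beside 0.01 over all genes tested.

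The classical alpha chain gene H2-Aa was at 1539 and 1056 CPM in Dnmt1 fl/fl replicates 1 and 2, and at 680 and 1426 CPM in Dnmt1 KO replicates 1 and 2. Its partner H2-Ab1, the beta chain of the I-A molecule, was at 1309 and 1105 CPM in Dnmt1 fl/fl, and at 721 and 1417 CPM in Dnmt1 KO. H2-Eb1, the beta chain of the I-E molecule, was at 1094 and 866 CPM in Dnmt1 fl/fl, and at 599 and 1015 CPM in Dnmt1 KO. In these 3 chain genes Dnmt1 KO replicate 1 stood below the remaining samples, and Dnmt1 KO replicate 2 lay above Dnmt1 fl/fl replicate 2. The log2 fold change was -0.30 ± 0.42 (SE) for H2-Aa, with an edgeR unadjusted p of 0.505. It was -0.18 ± 0.38 for H2-Ab1 and -0.28 ± 0.34 for H2-Eb1. Each of these differences was smaller than its own error, and the 95% confidence interval for H2-Aa ran from -1.35 to 0.75.

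Cd74, the invariant chain gene, was at 2745 and 1954 CPM in Dnmt1 fl/fl replicates 1 and 2, and at 1474 and 2580 CPM in Dnmt1 KO replicates 1 and 2. The order of the samples was that of H2-Aa and H2-Eb1, with Dnmt1 fl/fl replicate 1 highest and the Dnmt1 KO samples on either side of Dnmt1 fl/fl replicate 2. Its log2 fold change was -0.21 ± 0.37 (95% confidence interval -1.13 to 0.71).

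H2-DMa, the alpha chain of the peptide exchanger, was at 173 and 113 CPM in Dnmt1 fl/fl replicates 1 and 2, and at 112 and 194 CPM in Dnmt1 KO replicates 1 and 2. For H2-DMb1, one of its beta chains, the levels were 151 and 121 CPM in Dnmt1 fl/fl, and 110 and 174 CPM in Dnmt1 KO. H2-DMb2, the other beta chain, had 21.3 and 28.6 CPM in Dnmt1 fl/fl, and 12.9 and 31.0 CPM in Dnmt1 KO. The Dnmt1 KO samples were the lowest and the highest of the 4 in all 3 H2-DM genes and so enclosed the Dnmt1 fl/fl samples. For H2-DMa, however, Dnmt1 KO replicate 1 was nearly level with Dnmt1 fl/fl replicate 2, at a log2 difference of -0.004. H2-DMa and H2-DMb1 were the members with a fold change above 0, at 0.10 ± 0.36 and 0.07 ± 0.30 on the log2 scale, and H2-DMb2 was at -0.18 ± 0.44. H2-DMb2 also differed in the order of the Dnmt1 fl/fl samples: replicate 1 was above replicate 2 in the other 7 genes and below it in H2-DMb2. Its count in Dnmt1 KO replicate 1, 256, was the smallest count of any member in any sample.

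Ciita, the transactivator, was at 96.1 and 44.6 CPM in Dnmt1 fl/fl replicates 1 and 2, and at 18.5 and 113 CPM in Dnmt1 KO replicates 1 and 2. The Dnmt1 KO samples were again the lowest and the highest, and they lay 6.14-fold apart. A difference between the Dnmt1 KO samples at least as large was seen in 1.7% of the genes tested, and Ciita was in this respect the most variable of the 8 genes. The remaining members differed between the Dnmt1 KO samples by 1.58-fold (H2-DMb1) to 2.40-fold (H2-DMb2), and a difference at least as large was seen in 35.6% and 11.9% of all genes. With group means of 70.3 and 65.9 CPM, the log2 fold change of Ciita was -0.09 ± 0.83, and its 95% confidence interval, -2.15 to 1.96, was the widest of the members.

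**Figure D1:**
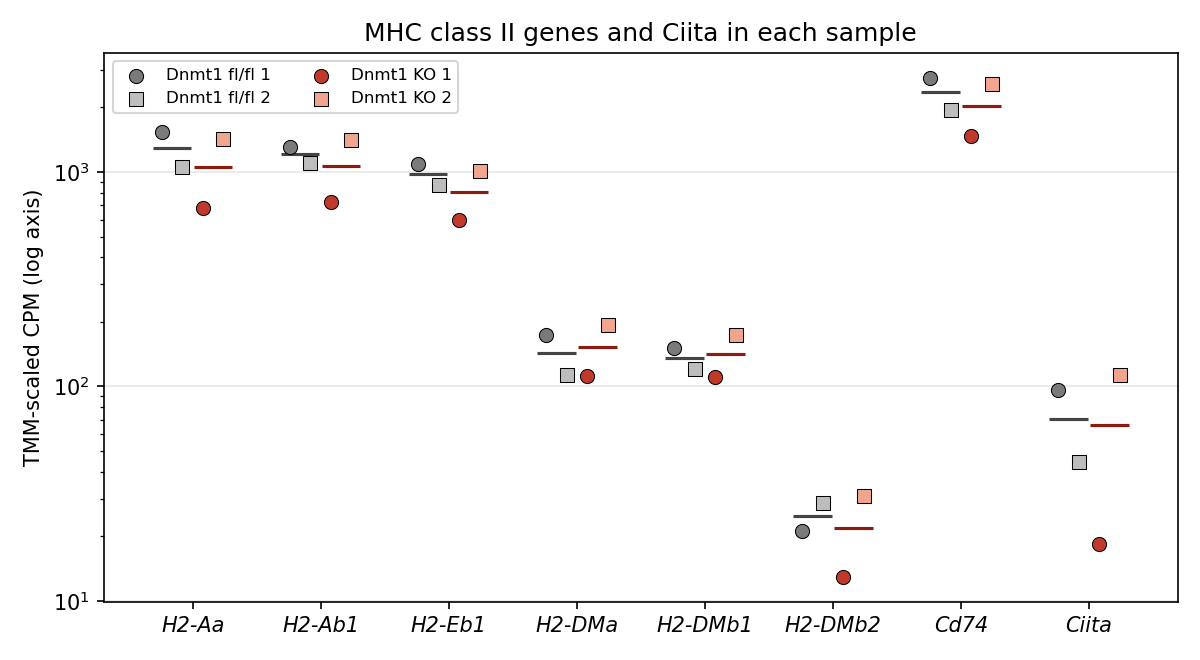
Level of each gene in each sample in TMM-scaled CPM on a log axis; points are samples and horizontal bars are the means of the 2 samples of a genotype. Dnmt1 KO replicate 1 is the lowest point for all 8 genes, from 12.9 CPM for H2-DMb2 to 1474 CPM for Cd74, and the genotypes overlap for each of them.

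**Figure D2:**
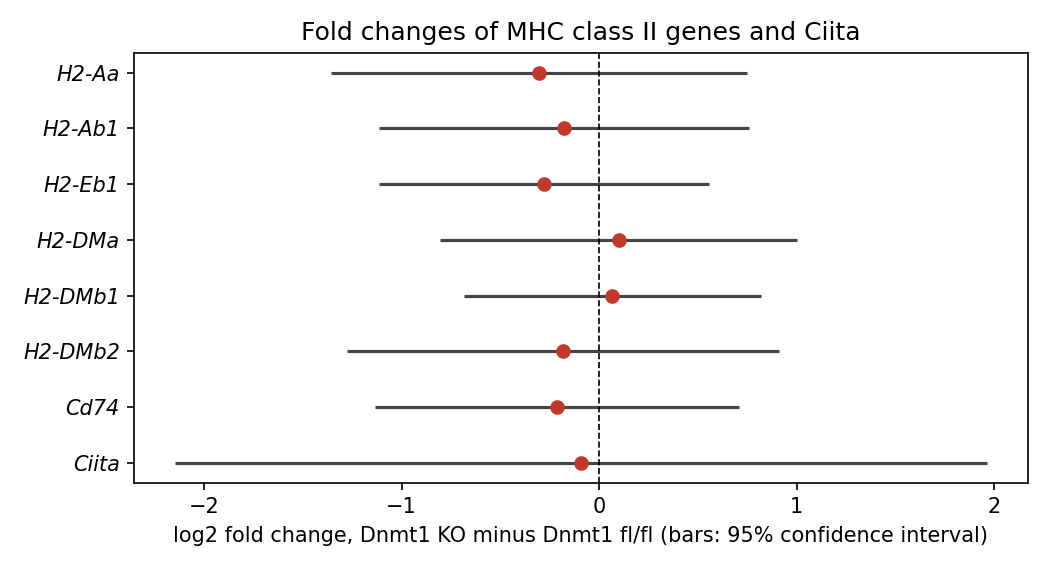
Log2 fold change of each gene, Dnmt1 KO minus Dnmt1 fl/fl, with the 95% confidence interval from edgeR's quasi-likelihood fit as a horizontal line. Every interval spans 0, from the widest for Ciita (-2.15 to 1.96) to the narrowest for H2-DMb1 (-0.68 to 0.82).

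Summed over the 8 genes, the level was 7128 and 5289 CPM in Dnmt1 fl/fl replicates 1 and 2, compared with 3728 and 6951 CPM in Dnmt1 KO replicates 1 and 2. These genes took 0.723% and 0.548% of all counts in the Dnmt1 fl/fl samples, and 0.339% and 0.726% in the Dnmt1 KO samples. The limit of 0.2 on the absolute log2 fold change, named in the study's methods, was reached by 3 of the 8 genes (H2-Aa, H2-Eb1 and Cd74), beside 41.5% of all genes tested. The count of 3 became 5 without scaling and 6 with limma-voom or with the replicate block. In the edgeR fit without a block, the limits of 0.5 and 1 were reached by 0 of the 8. Ciita was at -0.51 with limma-voom and with the replicate block. Dnmt1 KO replicate 1 was the lowest sample in 8 of the 8 genes (nearly level with Dnmt1 fl/fl replicate 2 in H2-DMa) and in 39.6% of all genes tested. It was the lowest with Dnmt1 KO replicate 2 the highest in 5 of the 8 (H2-Ab1, H2-DMa, H2-DMb1, H2-DMb2 and Ciita), beside 20.3% of all genes. The median absolute difference between the Dnmt1 KO samples was 0.89 on the log2 scale over the 8 genes and 0.48 over all genes tested. Between the Dnmt1 fl/fl samples it was 0.46 and 0.21.

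The direction of the fold changes depended on which sample was left out. Without Dnmt1 fl/fl replicate 1, Cd74 turned to 0.053 and Ciita to 0.565 on the log2 scale. Without Dnmt1 fl/fl replicate 2, H2-DMa turned to -0.175, H2-DMb1 to -0.083 and H2-DMb2 to 0.046. The other genes kept their direction in each of these fits. When Dnmt1 KO replicate 1 was left out, all 8 genes were higher in the remaining Dnmt1 KO sample, with a median of 0.27, and 0 had an adjusted p under 0.05, as did 0 of all 12912 genes in that fit. An unadjusted p under 0.05 was reached there by 0 of the 8 and by 2.73% of all genes. When Dnmt1 KO replicate 2 was left out, all 8 were lower, with a median of -0.73. Ciita then had a log2 fold change of -1.93 (edgeR adjusted p = 0.0154) and H2-DMb2 of -0.95 (adjusted p = 0.0434). These 2 of 8 genes stand beside 8.32% of 12754 genes called in the same fit. An unadjusted p under 0.05 was reached by 6 of the 8 genes and by 27.6% of all genes tested there. In such fits the lone sample is assumed to vary like the samples of the other genotype.

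Levels of different genes were compared per kilobase of annotated exons (GENCODE M21). On this scale Cd74 was highest, with a mean of 1303 CPM per kilobase over the 4 samples, and its lowest sample (878) lay above the highest sample of any other member. H2-Eb1, H2-Ab1 and H2-Aa followed at means of 460, 443 and 309 CPM per kilobase, and their ranges over the samples overlapped. H2-DMb1 came next at 82.7 CPM per kilobase and lay above H2-DMa, at 43.0, in every sample. H2-DMb2 and Ciita closed the order at 13.4 and 7.15 CPM per kilobase, with overlapping ranges. With the length of the longest transcript, H2-Ab1 (939) moved above H2-Eb1 (535), since the longest H2-Ab1 transcript has 1212 bases and its exons together span 2568.

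Ratios within a sample show how far the members moved together. The ratio of H2-Aa to H2-Ab1 counts stayed between 0.943 and 1.18 over the 4 samples, and that of Cd74 to H2-Ab1 between 1.77 and 2.10. For H2-DMb1 to H2-DMa the range was 0.870 to 1.07. The ratio of the 3 chain genes to Ciita was 41.0 and 67.9 in Dnmt1 fl/fl replicates 1 and 2, compared with 108 and 34.0 in Dnmt1 KO replicates 1 and 2. Chain counts thus varied less than Ciita counts, and the sample with the least Ciita had the most chain counts for each Ciita count. The ratio of H2-DMb2 to H2-DMb1 was 0.141 and 0.237 in Dnmt1 fl/fl, and 0.117 and 0.178 in Dnmt1 KO.

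Centred on the gene mean, the median log2 profile of the 8 genes was 0.30 and -0.10 in Dnmt1 fl/fl replicates 1 and 2, compared with -0.58 and 0.36 in Dnmt1 KO replicates 1 and 2. Cd74 and H2-Ab1 lay nearest to this profile, with root mean square distances of 0.0579 and 0.062 over the 4 samples, and Ciita lay farthest, at 0.663. The non-member genes most like the profile were Kat6a, Tep1, Ivns1abp, Tent5a and Ttc3, at distances of 0.0149 to 0.0218. Over 4 samples many genes share such a profile: 336 of 12534 non-member genes lay within 0.1 of it, more than the distance of Cd74.

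The other genes of the pathway were counted from lists of known roles. Of the other class II chain genes, H2-Eb2 was the one listed and tested, at 2.68 and 3.95 CPM in Dnmt1 fl/fl and 2.12 and 3.43 CPM in Dnmt1 KO; H2-Ea and H2-Ea-ps were not analysed here. Among 8 further peptide loading genes, 0 had an unadjusted p under 0.05. The share of all genes highest in Dnmt1 KO replicate 1 was not counted. Of these 8 genes, 6 were highest in that sample, where the class II genes were lowest. The most abundant of them were the lysosomal proteases Ctsb, Ctsd, Ctss and Ctsl, and Ctsl, which trims the invariant chain in some cells, was at 3085 and 3014 CPM in Dnmt1 fl/fl and 6994 and 3052 CPM in Dnmt1 KO. H2-Oa and H2-Ob, the chains of an H2-DM inhibitor, were picked after their values were seen. H2-Ob was at 24.02 and 29.4 CPM in Dnmt1 fl/fl and at 6.21 and 37.0 CPM in Dnmt1 KO, and H2-Oa at 5.12, 5.54, 3.89 and 7.50 CPM in the same order, so that both shared the low and high Dnmt1 KO samples of the H2-DM genes.

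All 10 genes of the Ciita partner list besides Ciita were tested, led by the acetyltransferase Ep300 and by Nfya, Creb1 and Kat2b, and 0 had an unadjusted p under 0.05. Ep300 was at 121 and 83.6 CPM in Dnmt1 fl/fl and 66.9 and 127 CPM in Dnmt1 KO, the sample order of Ciita over a narrower range. Of the 10 partner genes, 4 had that order. The share of all genes with it was not counted. Dnmt1 KO replicate 1 was lowest with Dnmt1 KO replicate 2 highest in 20.3% of all genes tested. The 10 genes between interferon gamma and Ciita, led by Ifngr1, Spi1, Jak1 and Irf8, had a median log2 fold change of 0.05, and 0 had an unadjusted p under 0.05. Their summed level was 1690 and 1759 CPM in Dnmt1 fl/fl and 1769 and 1745 CPM in Dnmt1 KO. Of the 10 genes, 4 were lowest in Dnmt1 KO replicate 1, and 2, Jak1 and Irf1, the latter named after its values were seen, had the sample order of Ciita. Of 8 listed repressors of Ciita or class II, 7 were tested, led by Hdac1, Hdac2, Hdac9 and Sirt1, and 0 had an unadjusted p under 0.05.

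Of 9 tested genes of class II turnover and co-stimulation, led by Cd83, Marchf1, Marchf8 and Cd274, 1 had an unadjusted p under 0.05. This was Cd86, a co-stimulatory ligand for T cells, at 41.3 and 43.6 CPM in Dnmt1 fl/fl and 27.5 and 27.7 CPM in Dnmt1 KO. Its log2 fold change was -0.62 ± 0.20 (edgeR unadjusted p = 0.0216, adjusted p = 1.00), and unlike the class II genes it had nearly equal levels within each genotype. The unadjusted p of Cd86 was 0.0955 with the replicate block, and 0.191 and 0.252 without Dnmt1 fl/fl replicate 1 or 2. Marchf1, a ligase that sends class II molecules to degradation, was at 94.4 and 84.7 CPM in Dnmt1 fl/fl and 66.4 and 134 CPM in Dnmt1 KO, lowest and highest in the same samples as Ciita. The 10 genes of class I presentation, led by H2-D1, B2m, H2-K1 and Tapbp, had a median log2 fold change of 0.20. Of them, 7 were highest in Dnmt1 KO replicate 1, and the share of all genes highest there was not counted. Nlrc5, the class I counterpart of Ciita, was picked after its values were seen. It was at 101 and 77.1 CPM in Dnmt1 fl/fl and 34.4 and 115 CPM in Dnmt1 KO, so it followed Ciita rather than the class I genes.

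Most markers of B cells, dendritic cells and large resident macrophages, and some macrophage markers, were lowest where the class II genes were, in Dnmt1 KO replicate 1. Other lists, such as that of neutrophils, ran differently. Fewer cells of a type cannot be told apart from less RNA in each cell. The B cell list, as reported here, had 16 of 16 genes tested, of which 15 were lowest and 15 highest in the samples where Ciita was lowest and highest, Dnmt1 KO replicates 1 and 2. Its summed level was 479 and 650 CPM in Dnmt1 fl/fl replicates 1 and 2, compared with 215 and 737 CPM in Dnmt1 KO replicates 1 and 2, with Ighm the most abundant gene, ahead of Cd22, Cd79a and Igkc. Between the Dnmt1 fl/fl samples, 12 of the 16 B cell genes were higher in replicate 2, as was H2-DMb2, whereas the other 7 genes, Ciita included, were higher in replicate 1. The ratio of the CPM of Cd79a, a B cell receptor chain, to that of Cd74 ranged from 0.00932 to 0.0276 over the samples and was lowest in Dnmt1 KO replicate 1. The part of B cells in the class II levels was not tested.

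Of the 10 macrophage markers, 6 were lowest in Dnmt1 KO replicate 1, beside 39.6% of all genes tested. The share of all genes with the sample order of Ciita was not counted. Of these 6 markers, 4, named after their values were seen, had that order: Adgre1, Mertk, Mrc1 and Cd163. Others, also named with their values seen, ran differently, with Fcgr1 and Cd68 highest in Dnmt1 KO replicate 1 and Cd14, Itgam and Fcgr1 lowest in Dnmt1 KO replicate 2. Cd163 was at 41.7 and 19.1 CPM in Dnmt1 fl/fl and 6.97 and 50.5 CPM in Dnmt1 KO. The list summed to 35970 and 34930 CPM in Dnmt1 fl/fl and 18160 and 22100 CPM in Dnmt1 KO, and without Lyz2, its most abundant gene, left out after the values were seen, to 6436, 6343, 6808 and 6357 CPM in the same order.

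The dendritic cell list had 14 of 14 genes tested, of which 10 were lowest in Dnmt1 KO replicate 1 and 9 highest in Dnmt1 KO replicate 2. Its summed level was 138, 179, 191 and 150 CPM in the order of the samples above, led by Cd24a, which other cells also make, and then by Cd209a, Mgl2 and Batf3. Without Cd24a, left out after its values were seen, the sum was 76.4, 81.5, 53.9 and 96.2 CPM, lowest and highest in the same samples as Ciita, whereas the sum with it was highest in Dnmt1 KO replicate 1. Of the large resident macrophage list, 9 of 10 genes were lowest in Dnmt1 KO replicate 1, the lowest sample of the class II genes; its leading genes were Cd5l, Prg4, Timd4 and Icam2, and its summed level was 1123 and 1380 CPM in Dnmt1 fl/fl and 776 and 1087 CPM in Dnmt1 KO. Without Cd5l, left out after its values were seen, the sum was 461, 364, 152 and 424 CPM in the same order, the sample order of H2-Aa and Cd74. Prg4 was at 203 and 82.7 CPM in Dnmt1 fl/fl and 28.4 and 182 CPM in Dnmt1 KO and was higher in Dnmt1 fl/fl replicate 1 than in replicate 2, whereas Cd5l, Timd4 and Icam2 were higher in replicate 2, as were 4 of the 10 genes in all. Neutrophil genes were highest where the class II genes were lowest, with 8 of 8 tested at their highest in Dnmt1 KO replicate 1. The share of all genes highest in that sample was not counted. Between the Dnmt1 fl/fl samples, 4 of the 8 neutrophil genes were higher in replicate 2. The summed level of these genes was 228 and 327 CPM in Dnmt1 fl/fl and 904 and 226 CPM in Dnmt1 KO. The list was led by Csf3r, S100a9, Mmp9 and S100a8, and S100a9 was at 5.55 and 60.5 CPM in Dnmt1 fl/fl and 320 and 8.35 CPM in Dnmt1 KO. Of the monocyte and small macrophage list, led by Fn1, Ccr2, Chil3 and Retnla, 4 of 10 genes were lowest and 3 highest in Dnmt1 KO replicate 1. This list summed to 7464 and 7421 CPM in Dnmt1 fl/fl and 7236 and 7041 CPM in Dnmt1 KO, and without Fn1 to 1054, 1487, 1113 and 1123 CPM in the same order, neither of them lowest in the sample where Ciita was. The B cell and neutrophil sums kept their lowest and highest samples without their most abundant gene. Markers of T and NK cells (13 tested, led by Cd2), mast cells and eosinophils (7 tested, led by Ccr3) and mesothelial cells (7 tested, led by Krt8) summed to at most 92.1, 24.4 and 15.8 CPM in a sample. In the cell type lists 1 gene, Lyz2, had an unadjusted p under 0.05. The part of these cells in the class II levels was not tested.

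**Figure D3:**
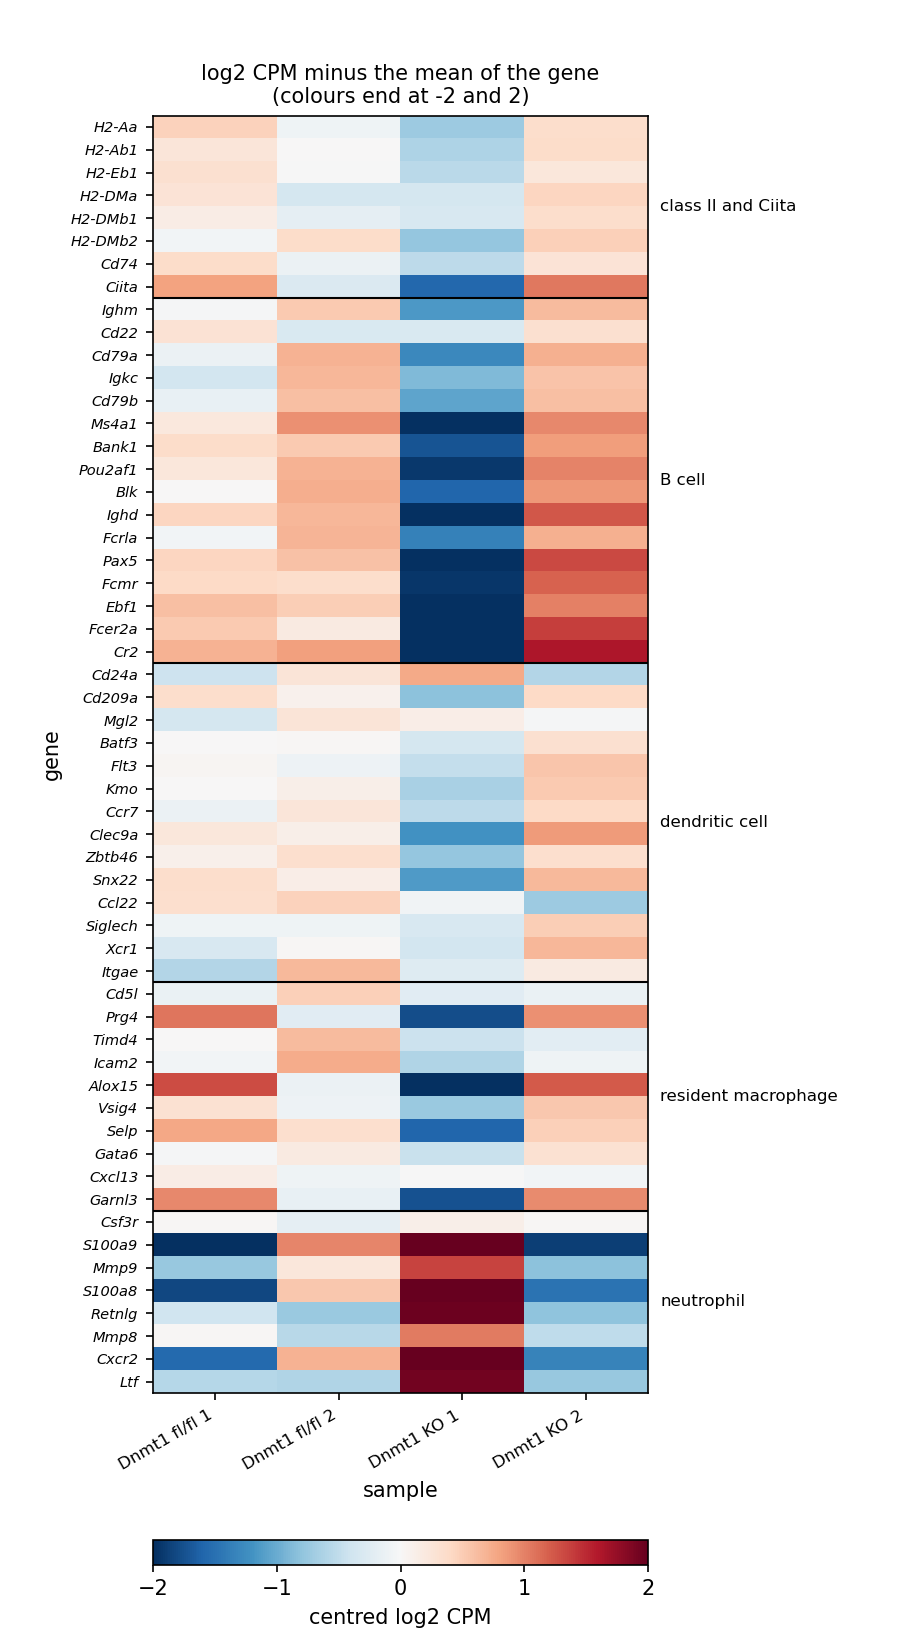
Log2 CPM of each gene minus its mean over the 4 samples, for the class II genes with Ciita and for the tested genes of 4 marker lists; red is above and blue below the mean of the gene, and colours end at -2 and 2. The column of Dnmt1 KO replicate 1 is blue for the class II genes, Ciita and the 16 B cell genes, and red for the 8 neutrophil genes. Of the 16 B cell genes, 15 are at their lowest in that sample.

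By position, 6 of the 8 genes lie in the class II region of chromosome 17 and the other 2 on chromosomes 16 and 18 (GENCODE M21, GRCm38, the build the submitters' notes call mm10). In order along the region they are H2-DMa (chr17:34119541-34139101), H2-DMb2 (chr17:34143307-34151555), H2-DMb1 (chr17:34153072-34160230), H2-Ab1 (chr17:34257689-34269419), H2-Aa (chr17:34282744-34287823) and H2-Eb1 (chr17:34305867-34316674). H2-Aa is on the minus strand and the other 5 are on the plus strand. Ciita lies at chr16:10480059-10528418 and Cd74 at chr18:60803848-60812652, both on the plus strand. From H2-Oa to H2-Eb2 (chr17:34092340-34341412), 6 of 6 members and 3 of 8 other tested genes were lowest in Dnmt1 KO replicate 1. Those 3 were the class II genes H2-Oa, H2-Ob and H2-Eb2, and the interleaved class I genes Psmb9, Tap1, Psmb8 and Tap2 and the bromodomain gene Brd2 were not lowest in that sample.

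Some reads could belong to more than one of these genes. H2-DMb1 shares 11.3% of its 100-base transcript stretches with H2-DMb2, which shares 10.3% of its own, so the split between them is uncertain. H2-DMa overlaps Brd2 on the opposite strand and shares 6.6% of its stretches with it. Ciita overlaps Dexi on the opposite strand and shares 0.3% of its stretches with it. The library did not mark strand, so reads from these shared stretches cannot be told apart. H2-Aa, H2-Ab1, H2-Eb1 and Cd74 shared 0 of their stretches with another gene.

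As a description, the promoters of the members with a reference window were searched for X1 and Y box cores and an interferon element. The X1 and Y box cores are bound by the complex on which Ciita docks. RefSeq windows (GRCm38.p6) of 250 bases before to 50 after the start were given for 5 of the 8 genes, H2-Aa, H2-Eb1, H2-DMa, H2-DMb1 and H2-DMb2, with 2 windows for H2-DMa; the missing genes are H2-Ab1, Cd74 and Ciita. The Y box core ATTGG, read on both strands, was found in 5 of the 6 windows, 1 for each gene, and in 37.4% of all 32851 windows. The X1 box core AGNAACNGA was found in 2 of the 6, those of H2-Eb1 and H2-DMb1, and in 5.35% of all windows. In H2-Eb1 it starts 92 bases upstream and is followed by a Y box core after 24 bases, and in H2-DMb1 it starts 95 bases upstream with 25 bases between. Both cores occurred together in 1.98% of all windows. The interferon element TTCNNNGAA was found in the window of H2-DMb2 and in 8.3% of all windows.

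CpG dinucleotides, the substrate of Dnmt1, numbered 3 in the windows of H2-Aa, H2-DMb1 and H2-DMb2 and 0 in that of H2-Eb1, below the median of 7 over all windows. The windows of H2-DMa held 29 and 0. The window with 29, at chr17:34122582-34122881, also spans the start of Brd2, which lies on the opposite strand (chr17:34112023-34122634). Its CpG dinucleotides therefore cannot be assigned to H2-DMa alone. Methylation of these bases was not measured here. The stretches from 140 to 31 bases upstream of the start are printed 5′ to 3′ on the strand of the gene for 3 promoters that carry the Y box core there, with X1 and Y box cores in capitals. H2-Eb1 shows both cores and their spacing, and H2-Aa and H2-DMb2 show a Y box core without an exact X1 match. In H2-DMb2 the letters attaaccga precede the Y box core and match the X1 core except for T in place of G. Inexact matches were not searched for, so an X1 box is not shown to be absent. H2-DMb1 is not printed, since 89 of the 110 bases lie in annotated exons. They lie at chr17:34305727-34305836 (plus strand) for H2-Eb1, chr17:34287854-34287963 (minus strand) for H2-Aa and chr17:34145109-34145218 (plus strand) for H2-DMb2, outside annotated exons; the last lies within the longer GENCODE gene of H2-DMb2. A match is a description of the letters, and binding was not measured.
H2-Eb1: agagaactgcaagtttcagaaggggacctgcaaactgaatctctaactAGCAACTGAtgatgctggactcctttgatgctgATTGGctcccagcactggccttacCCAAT
H2-Aa: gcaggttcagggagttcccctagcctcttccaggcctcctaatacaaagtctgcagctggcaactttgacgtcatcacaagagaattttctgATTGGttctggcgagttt
H2-DMb2: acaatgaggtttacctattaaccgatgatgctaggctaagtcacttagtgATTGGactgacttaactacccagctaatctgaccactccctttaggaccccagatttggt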

How the data were processed

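Peritoneal macrophage RNA was sequenced in paired ends from a library that does not mark strand. According to the submitters' notes, the authors aligned reads to mm10 with HISAT2 2.0.5 and counted them per gene with featureCounts 1.5.0-p3, and they deposited estimated counts, not normalized; the annotation is not stated. Values, of which 72.6% to 76.4% per sample were whole exactly as deposited, with no tolerance, were rounded, filtered with filterByExpr, scaled with TMM and tested with edgeR 4.0.16 (R 4.3.3) by a two-sided quasi-likelihood F-test without a block, adjusted by Benjamini-Hochberg over all 12542 genes tested. Standard errors were taken from the F statistic. Log2 CPM used a prior count of 1. DESeq2 1.42.0, limma-voom (limma 3.58.1), other scalings and filters, unrounded values, a replicate block and leaving out each sample were alternatives. The procedure was tested on simulated data. For 2 against 2 samples the smallest two-sided p of an exact permutation test is 0.333. Replicates varied with a coefficient of variation of 28.9% (common dispersion 0.0837). The 8 genes and all gene lists were chosen with earlier results of these data known. From each list the 4 most abundant tested genes and any with an unadjusted p under 0.05 were named, with Dnmt1 as the check of the labels and the 5 genes nearest to the median profile. Of the listed genes, 1 is not reported here and was left out of list counts, sums and medians. The shorter deposited table, a subset of the same values, was not used here. Figures used Python 3.11.15 and matplotlib 3.10.9.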

Additional observations from a re-analysis of the deposited data

How the results depend on the processing

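Under 8 alternatives that kept all samples, not counting the crossed pairing described below, the 64 fold changes of the class II genes and Ciita kept their direction and had no adjusted p under 0.05, over a range from -0.51 to 0.11 on the log2 scale. With 1 sample left out, 13 of 32 turned and 2 passed the threshold, both without Dnmt1 KO replicate 2; fewer samples entered these fits, and the lone sample is assumed to vary like the others. The fold changes then ran from -0.93 to 0.13 for H2-Aa, -0.74 to 0.23 for H2-Ab1, -0.709 to 0.049 for H2-Eb1, -0.35 to 0.44 for H2-DMa, -0.30 to 0.36 for H2-DMb1, -0.95 to 0.31 for H2-DMb2, -0.67 to 0.13 for Cd74 and -1.93 to 0.69 for Ciita, and their median from -0.73 to 0.27. Of the 8 genes, 0 to 6 had an unadjusted p under 0.05. Over all genes, 0 to 1061 had an adjusted p under 0.05. Genes with an unadjusted p under 0.05 numbered 0 to 13 in the pathway lists and 5 to 46 in the cell type lists, and the B cell median ran from -2.28 to 0.42. Without Dnmt1 KO replicate 2, Dnmt1 and Lyz2 also passed the threshold (edgeR adjusted p = 0.02 and 0.0193; in every other fit the adjusted p of Lyz2 was 1, as was that of Dnmt1 except for 0.282 with the crossed pairing described below). Without Dnmt1 fl/fl replicate 1 their unadjusted p was 0.141 and 0.115, and without Dnmt1 fl/fl replicate 2 it was 0.0292 and 0.0889.

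With all samples, DESeq2 called 1 gene of the table, Pagr1a, and the cause was not tested. Without a scaling factor 2 pathway genes had an unadjusted p under 0.05 in place of 1. With no filter, 60 genes had an unadjusted p under 0.05 in place of 35. The number of class II genes at or past 0.2 was 5 without scaling, 6 with limma-voom and 6 with the replicate block, in place of 3. It was 4 and 5 without Dnmt1 fl/fl replicate 1 or 2, and 5 and 8 without Dnmt1 KO replicate 1 or 2. In the edgeR fit without a block, 0 reached the limits of 0.5 and 1, whereas Ciita was at -0.51 with limma-voom.

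The labels give the genotypes the same replicate numbers, which share only a number. With the replicate block, 0 genes of the table passed the adjusted threshold, the median of the class II genes and Ciita was -0.27, and Ciita stood at -0.51; 0 pathway genes and 2 cell type genes had an unadjusted p under 0.05, and it changed no adjusted call. Same-numbered samples deviated in opposite directions (correlation -0.35 across 12542 genes, which are not independent), so a crossed pairing, chosen after seeing the data, was run as a block: 3 genes of the table, 0 of them class II, had an adjusted p under 0.05, and 297 genes, 3 pathway genes, 15 cell type genes and 0 class II genes had an unadjusted one.

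The smallest member count, 256, is far above the floor of 3. How far counting error and the spread between samples each set the precision of these fold changes was not tested. Relative to Cd74, the mean level of Ciita was 3.11% in CPM, 0.549% per kilobase of exons and 0.731% per kilobase of the longest transcript.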
